A study of Mus musculus with 3 samples.

Results

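Mt1, Mt2 and Slc30a1 are 3 of the 32285 genes measured in each library, and they were taken by name from the gene symbols of the matrices. The files list them as ENSMUSG00000031765 (Mt1), ENSMUSG00000031762 (Mt2) and ENSMUSG00000037434 (Slc30a1). They were chosen by their own UMIs (unique molecular identifiers, 1 per captured RNA molecule) in these libraries, which differed between libraries and between CD8 cells rich and poor in Gzmc. Their levels are therefore given as a description, with no test.

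By its title, the study is about an interleukin-2 that is steered to LAG3, a receptor that restrains T cells. Tumours of MC38, a mouse colon carcinoma line, were taken at day 15, after 5 days of treatment, and cells stained for CD3 were sorted from them for droplet sequencing of RNA 3′ ends. There are 3 libraries, labelled PBS (the buffer control), mix and homo, and the labels give neither what mix and homo contain nor how many animals were pooled. With 1 library per group, no difference below has a replicate check, and every interval is a 95% interval for counting error alone.

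Metallothioneins are small, cysteine-rich proteins of the cytosol that bind zinc, copper and cadmium. Their genes are switched on by MTF1, a transcription factor that senses free zinc and binds metal response elements (MREs) in promoters, and also by glucocorticoids and oxidative stress. MTF1 acts in the same way on Slc30a1, which encodes ZnT1, the zinc exporter of the plasma membrane. In mouse tumours, Mt1 and Mt2 have been described as part of the programme of dysfunctional CD8 T cells.

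The windows around the RefSeq start sites of the 3 genes are shown because the MRE is the element that the 3 genes are known to share. Each window runs from 250 bases before the start site to 50 after it, on the plus strand of GRCm38.p6, a build other than the one named for the count files. All 3 genes had 1 entry in the table. Capitals mark the MRE core, TGCACNC or TGCGCNC, read on both strands.
Mt1, chr8:94178839-94179138: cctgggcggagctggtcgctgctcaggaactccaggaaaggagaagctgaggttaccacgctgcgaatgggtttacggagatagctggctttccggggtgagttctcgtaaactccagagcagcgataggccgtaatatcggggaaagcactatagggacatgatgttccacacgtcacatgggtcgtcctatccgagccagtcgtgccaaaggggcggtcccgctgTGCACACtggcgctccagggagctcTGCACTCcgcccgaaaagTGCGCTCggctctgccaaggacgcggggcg
Mt2, chr8:94172368-94172667: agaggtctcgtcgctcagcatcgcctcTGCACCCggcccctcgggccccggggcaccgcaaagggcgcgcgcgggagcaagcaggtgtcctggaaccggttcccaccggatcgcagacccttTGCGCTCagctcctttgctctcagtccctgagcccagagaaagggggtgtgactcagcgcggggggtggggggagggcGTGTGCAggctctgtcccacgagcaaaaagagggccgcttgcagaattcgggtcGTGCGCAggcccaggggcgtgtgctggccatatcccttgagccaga
Slc30a1, chr1:191906531-191906830: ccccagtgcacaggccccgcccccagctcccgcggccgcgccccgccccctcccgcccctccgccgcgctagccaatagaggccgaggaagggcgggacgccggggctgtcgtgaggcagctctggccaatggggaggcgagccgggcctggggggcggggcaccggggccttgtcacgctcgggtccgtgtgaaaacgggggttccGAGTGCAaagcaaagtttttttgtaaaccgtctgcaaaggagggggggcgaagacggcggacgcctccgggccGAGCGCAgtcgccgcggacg

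The Mt1 window held 3 MRE cores, which begin at positions -23, 2 and 20 relative to the start site and lie on the plus strand. The Mt2 window held 4, of which those at -223 and -128 are on the plus strand and those at -50 and 4 on the minus strand. In the Slc30a1 window there were 2, at -43 and 30, both on the minus strand. Of the 32851 promoter windows of 300 bases in the table, 25.7% held at least 1 such core, 7.11% at least 2, 1.97% at least 3 and 0.517% at least 4. The core of the antioxidant response element, TGACNNNGC, read on both strands, was present once in the Mt2 window, at -79, and once in the Slc30a1 window, at -82 on the minus strand, against 12.4% of all windows with at least 1. The Mt1 window held none, but bases outside the windows and other start sites were not searched. None of these matches overlapped another, and a match is a run of letters, not a measured binding site.

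The libraries held 8461 to 10351 barcodes and 49179708 to 65336646 UMIs, and 7303 to 9214 cells per library remained after filtering. T cells were gated on their own UMIs, all with a CD3 gene: CD8 cells (Cd8a or Cd8b1, neither Cd4 nor Foxp3), CD4 cells (Cd4 only) and Foxp3 cells (Foxp3, the factor that defines regulatory T cells, without Cd8a or Cd8b1). PBS had 7117 cells in the CD8 gate, mix 5587 and homo 6517. The Foxp3 gate held 842, 807 and 124 cells, and the CD4 gate 317, 309 and 70, in the same order. All 5 CD8 markers were present in the CD8 gate of every library, but these are the genes that set the gate. All 6 regulatory T cell markers were present in the Foxp3 gate, which Foxp3 itself set. The 5 others were present in the CD8 and CD4 gates as well. The homo library stood apart in depth and in mitochondrial RNA: the median CD8 cell had 6912 UMIs, against 5113 in PBS and 5651 in mix, and a median of 0.560% mitochondrial UMIs, against 0.333% and 0.350%. Between 100 and 131 cell barcodes were shared by any 2 libraries, and without them the CD8 ratio of homo over PBS was 0.87 for Mt1 and 1.51 for Mt2, on the log2 scale explained next.

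Levels are counts per 1e6 UMIs of the gate (CPM). In CD8 cells Mt1 stood at 182 CPM in PBS (interval 178 to 186, 7495 UMIs), 154 in mix (150 to 158, 5470 UMIs) and 324 in homo (320 to 329, 16550 UMIs). Homo was the high library, mix was slightly below PBS, and the 3 intervals did not overlap. The homo level was 1.78-fold that of PBS, a log2 ratio of 0.83 (0.79 to 0.87), and 2.11-fold that of mix, a log2 ratio of 1.08 (1.03 to 1.12). Mix against PBS gave -0.24 (-0.29 to -0.19).

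Mt2, the sister gene that lies next to Mt1 on chromosome 8, was measured at 20.04 CPM in PBS (18.7 to 21.5, 825 UMIs), 18.9 in mix (17.5 to 20.4, 672 UMIs) and 55.8 in homo (53.8 to 57.9, 2848 UMIs). The PBS and mix intervals overlapped, and homo lay above both. The fold of homo over PBS was 2.79, a log2 ratio of 1.48 (1.37 to 1.59), and over mix 2.95, a log2 ratio of 1.56 (1.44 to 1.69). Mix over PBS was -0.08 with an interval that includes 0 (-0.23 to 0.07). In CD8 cells of like mitochondrial share, 0.3 to 0.6%, homo over PBS was 0.84 for Mt1 and 1.52 for Mt2, and in cells thinned to 2000 UMIs it was 0.82 and 1.56.

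Slc30a1 had the fewest UMIs of the 3, 259 in the PBS CD8 gate, 182 in mix and 300 in homo. These correspond to 6.29 CPM (5.55 to 7.105), 5.12 (4.40 to 5.92) and 5.88 (5.23 to 6.59). All 3 intervals overlapped. The log2 ratio of homo over PBS was -0.10 (-0.34 to 0.15), so at this depth a difference like that of Mt1 or Mt2 lay outside the interval. Homo over mix was 0.20 (-0.07 to 0.47) and mix over PBS -0.30 (-0.58 to -0.02).

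**Figure D1:**
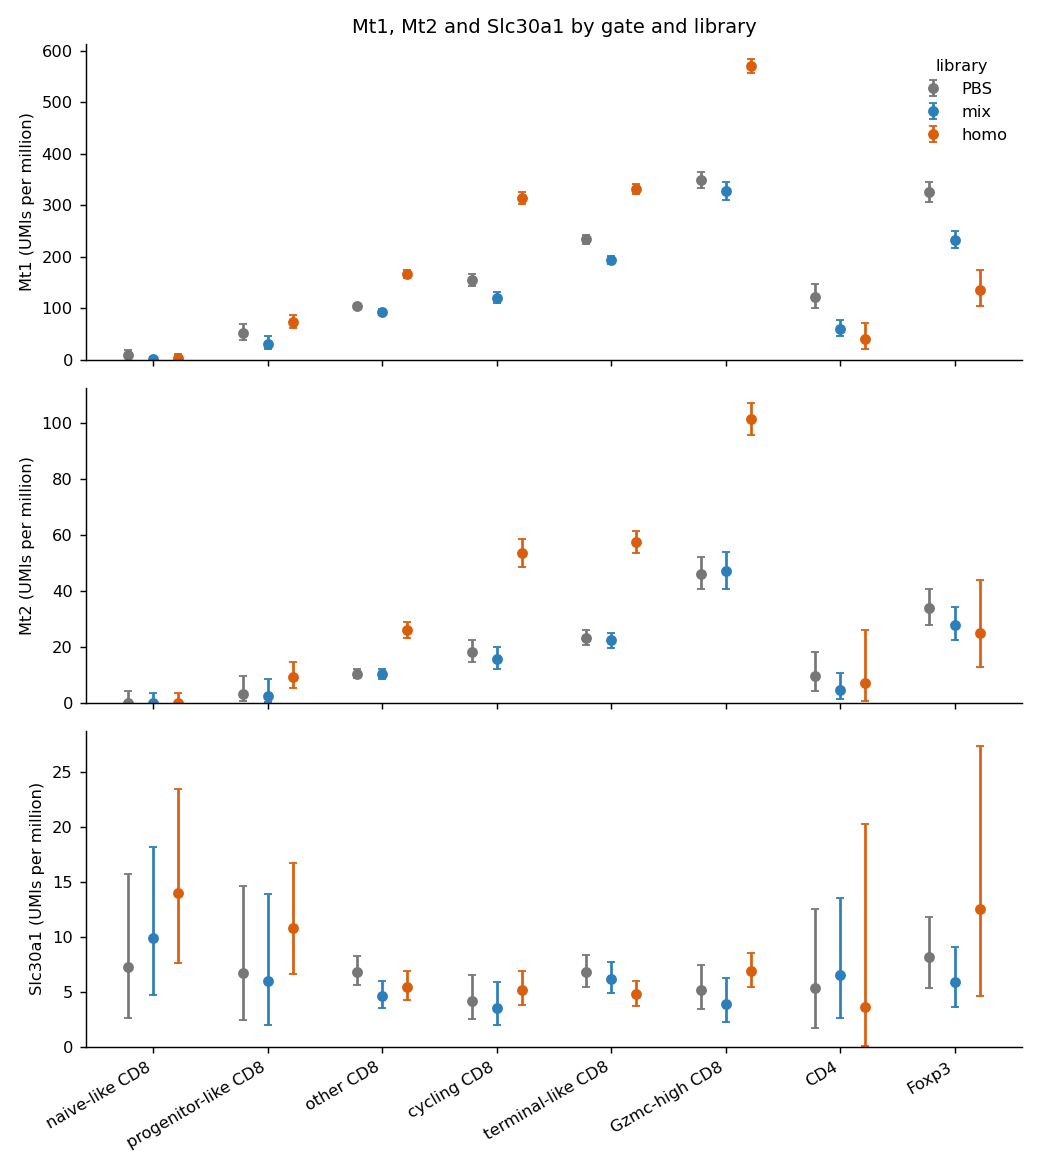
Levels of Mt1, Mt2 and Slc30a1 (CPM, 1 panel per gene) in 8 cell gates, with 1 point per library and bars for the exact 95% Poisson interval of the UMI count. Mt1 and Mt2 are highest in Gzmc-high CD8 cells of homo (570 and 101 CPM) and lowest in naive-like CD8 cells, while all intervals of Slc30a1 that are neighbours in level overlap.

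Mt1 and Mt2 were at least 1.5-fold higher in homo than in both other libraries. Of the 7869 genes at 10 CPM or more in PBS or homo CD8 cells, 3.2% were 1.5-fold higher in homo and 4.6% lower. Against mix it was 3.19% and 4.26% of 7865 genes. For mix over PBS 0.552% of 7786 genes were higher and 0.629% lower, and neither metallothionein was among them. Slc30a1 was under 10 CPM in the whole CD8 gate of every library and was not among the genes counted.

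The share of cells with a UMI was read after thinning each cell to 2000 UMIs, which leaves out shallower cells. Of the thinned CD8 cells, 15.7% carried Mt1 in PBS, 12.6% in the mix library and 26.1% in homo. For Mt2 the shares were 2.62%, 2.14% and 7.31%. In naive-like CD8 cells Mt1 was seen in 2.12%, 0.433% and 0.535% of cells and Mt2 in none. That gate leaves out cells with a UMI of Pdcd1, Havcr2 or Gzmb, so it cannot measure stray RNA in the other gates. The median depth of naive-like cells before thinning was 3961, 4012.5 and 5187 UMIs. Slc30a1 was found in 1.27%, 0.964% and 1.32% of thinned CD8 cells. It was seen in none of the 62 thinned CD4 cells of homo. In the highest Gzmc bin of CD8 cells, described below, it was absent from all 186 thinned cells of PBS and all 117 of mix.

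Within the CD8 gate both metallothioneins followed the same order of states. Cells were sorted in turn into Gzmc-high (at least 10 UMIs of granzyme C per 10000), cycling (Mki67 with a mitotic gene), naive-like (Ccr7 or Lef1 without Pdcd1, Havcr2 and Gzmb), progenitor-like (Tcf7 and Pdcd1 without Havcr2), terminal-like (Pdcd1 and Havcr2 without Tcf7) and all other cells. Naive-like cells held 8, 1 and 4 Mt1 UMIs in PBS, mix and homo, or 9.60, 0.987 and 3.98 CPM, and no Mt2 UMI in 205, 244 and 195 cells. The upper bounds of the exact intervals for those counts of 0 were 4.42, 3.64 and 3.67 CPM.

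Progenitor-like cells had Mt1 at 51.4 CPM in PBS, 30.9 in mix and 72.4 in homo. Terminal-like cells had 233, 193 and 331 CPM. The terminal-like level was above the progenitor-like level in each library, with log2 ratios of 2.18 (1.76 to 2.64), 2.64 (2.09 to 3.26) and 2.19 (1.95 to 2.45). Mt2 showed the same direction with few counts, 3, 2 and 17 UMIs in progenitor-like cells against 313, 275 and 858 in terminal-like ones.

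Cycling cells had Mt1 at 155 CPM in PBS, 120 in mix and 313 in homo. They were below terminal-like cells by 0.60 and 0.69 on the log2 scale in PBS and mix, and close to them in homo (-0.08, interval -0.15 to -0.01). Cells in none of these states had 104, 92.3 and 166 CPM.

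Ranked over the 24 pairs of library and gate, the highest Mt1 level was that of Gzmc-high cells in homo, 570 CPM (556 to 584), which did not overlap with the next. Gzmc-high cells of PBS (349 CPM), terminal-like cells of homo (331), Gzmc-high cells of mix (328), Foxp3 cells of PBS (325) and cycling cells of homo (313) followed, each overlapping its neighbour. The naive-like gates closed the order. For Mt2 the first place was again Gzmc-high cells of homo, with 101 CPM (95.5 to 107), apart from terminal-like cells of homo at 57.4 (53.6 to 61.4). From there to the 13th place, neighbours overlapped.

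Slc30a1 ran in another order. Its highest values were in naive-like cells of homo (13.9 CPM, 14 UMIs), Foxp3 cells of homo (12.5 CPM, 6 UMIs) and progenitor-like cells of homo (10.8 CPM, 20 UMIs), and its lowest in cycling cells of mix (3.54 CPM, 15 UMIs). Every neighbour in that order overlapped. In homo the terminal-like level of 4.75 CPM lay below the naive-like level by a log2 ratio of -1.55 (-2.39 to -0.61) and below the progenitor-like level by -1.19 (-1.92 to -0.39). In PBS and mix the terminal-like to progenitor-like ratio was 0.02 and 0.06, with intervals that include 0.

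The difference between libraries was present in each CD8 state with enough counts. For Mt1, homo over PBS was 0.71 (0.63 to 0.78) in Gzmc-high cells, 1.02 (0.90 to 1.14) in cycling, 0.50 (0.44 to 0.57) in terminal-like and 0.68 (0.58 to 0.77) in other cells. In progenitor-like cells it was 0.49, with an interval that reaches 0. For Mt2 the same ratios were 1.14 (0.94 to 1.34), 1.54 (1.21 to 1.90), 1.30 (1.11 to 1.49) and 1.30 (1.03 to 1.58), in the order Gzmc-high, cycling, terminal-like and other. Mt2 was thus higher in homo than PBS by more than Mt1 in all 4 of these states.

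Gzmc is a granzyme of strongly activated cytotoxic T cells, and CD8 cells rich in it had higher metallothionein levels than the other CD8 cells of their library. Gzmc-high cells were 622 (8.74%) of the CD8 gate in PBS, 435 (7.79%) in mix and 1187 (18.2%) in homo. Their Mt1 level was 349 CPM in PBS, 328 in mix and 570 in homo, against 156, 131 and 253 in the remaining CD8 cells. The folds within a library were 2.24, 2.50 and 2.25, or log2 ratios of 1.17 (1.09 to 1.24), 1.32 (1.23 to 1.41) and 1.17 (1.13 to 1.22). In mix, 1 cell held 225 of the 1359 Mt1 UMIs, and without it the log2 ratio was 1.10.

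Mt2 stood at 46.0 CPM in Gzmc-high cells of PBS, 47.0 in mix and 101 in homo, against 15.9, 15.2 and 42.6 in the other CD8 cells. Log2 ratios were 1.53 (1.31 to 1.75), 1.63 (1.38 to 1.87) and 1.25 (1.14 to 1.36), and without the highest cell of mix its ratio was 1.37. Both metallothioneins were past 1.5-fold in all 3 libraries, where 2.09% of tested genes were higher in PBS, 2.09% in mix and 0.903% in homo. Slc30a1 did not follow: its ratios were -0.33 (-0.94 to 0.23), -0.46 (-1.30 to 0.29) and 0.29 (-0.10 to 0.67), and each interval includes 0. In cells thinned to 2000 UMIs these ratios were -1.06, -0.03 and 0.53.

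Depth and the summed markers of natural killer cells moved with this split. The 7 markers summed to 889 CPM in Gzmc-high cells of PBS against 449 in the rest, to 942 against 514 in mix and to 776 against 523 in homo. Fcer1g made up most of the sums in Gzmc-high cells, at 589, 644 and 497 CPM in PBS, mix and homo. In the rest the highest marker was Klre1, at 246, 263 and 265 CPM. The sums do not show that each marker rose. Klra8 was at 0 in all Gzmc-high cells, and the part of these genes in the result was not tested. Gzmc-high cells had a median of 8454, 8838 and 8923 UMIs, against 4915, 5483 and 6558 in the rest. After thinning to 2000 UMIs, 33.3% of PBS Gzmc-high cells carried Mt1, as did 25.6% of those in mix and 44.7% of those in homo. Mt2 was seen in 6.37%, 6.52% and 15.0%. The Mt1 log2 ratio in cells thinned alike was 1.37 in PBS, 1.24 in mix and 1.35 in homo, above the value from all UMIs in PBS and homo and below it in mix.

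Mt1 did not step up only at the limit of 10. In CD8 cells with no Gzmc UMI it was 130 CPM in PBS, 102 in mix and 182 in homo. At up to 5 per 10000 it was 244, 210 and 346, and with 5 to 10, just inside the limit, 241, 254 and 397. Cells just past it, at 10 to 50, had 340, 334 and 509, and cells at 50 or more 367, 312 and 729. In mix the last bin was below the one before, with overlapping intervals (282 to 345 against 313 to 355). Mt2 went from 12.7, 12.2 and 28.0 CPM without Gzmc to 53.3, 40.6 and 139.8 at 50 or more.

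**Figure D2:**
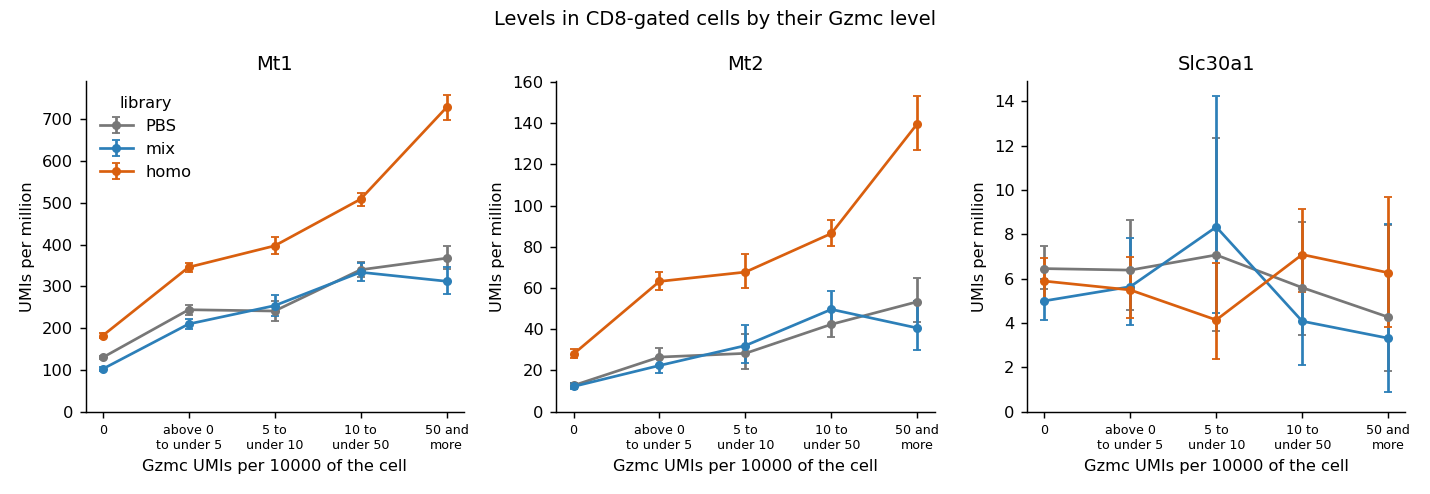
Levels of the 3 genes (CPM) in CD8 cells binned by Gzmc UMIs per 10000, with 1 line per library and exact 95% Poisson bars. Mt1 reaches 729 CPM in the top bin of homo from 182 in cells without Gzmc, and Slc30a1 shows no such slope.

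The homo library held more Gzmc-high cells, and these carried 39.6% of its CD8 Mt1 UMIs and 40.9% of its Mt2 UMIs, against 26.2% and 31.4% in PBS and 24.8% and 29.0% in mix. They held 22.6%, 13.7% and 11.7% of all CD8 UMIs in homo, PBS and mix. Without Gzmc-high cells, Mt1 in homo over PBS was 0.70. Among cells with no Gzmc UMI it was 0.49 (0.42 to 0.55) for Mt1 and 1.14 (0.95 to 1.33) for Mt2. With the 6 CD8 states weighted as in PBS, a weighting chosen after seeing the data, the ratios were 0.65 for Mt1 and 1.28 for Mt2.

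Foxp3 cells ran the other way. Mt1 was 325 CPM in PBS (306 to 345, 1082 UMIs), 233 in mix (217 to 250, 791 UMIs) and 136 in homo (105 to 173, 65 UMIs). PBS was the high library here and homo the low one, with no overlap. The log2 ratio of homo over PBS was -1.26 (-1.64 to -0.90), of homo over mix -0.78 (-1.17 to -0.41) and of mix over PBS -0.48 (-0.61 to -0.35). In this gate 12.2% of 8467 tested genes were 1.5-fold lower in homo than in PBS, 11.5% of 8441 lower than in mix and 2.33% of 8064 lower in mix than in PBS. After thinning, Mt1 was seen in 21.8%, 15.9% and 16.7% of Foxp3 cells, so the share did not place homo below mix. The PBS interval (18.9 to 25.0) and the homo interval (10.2 to 25.1) of this share overlapped as well.

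Within a library, Foxp3 cells exceeded CD8 cells in Mt1 by 0.84 in PBS and 0.60 in mix on the log2 scale, and in homo they were lower, at -1.26. Mt2 had 113, 95 and 12 UMIs in the Foxp3 gate, or 34.0, 28.0 and 25.1 CPM. Its intervals overlapped in all libraries, and homo over PBS was -0.44 (-1.43 to 0.42). After thinning that ratio was -1.82, with 1.85% of 108 homo cells and 4.31% of 719 PBS cells holding Mt2. Slc30a1 had 27, 20 and 6 UMIs there.

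Foxp3 cells with a UMI of Klrg1 or Il10, genes of effector regulatory T cells, had a higher Mt1 level than those without in every library. The levels were 351 against 251 CPM in PBS, 276 against 128 in mix and 165 against 82.4 in homo. In both subsets homo was below PBS, by -1.09 (-1.52 to -0.68) with Klrg1 or Il10 and by -1.60 (-2.50 to -0.83) without, the last resting on 14 UMIs in homo.

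Some markers of other cells moved with the Foxp3 result. The 10 macrophage markers summed to 78.7 CPM in PBS, where 8 of them reached 1 CPM, to 60.7 in mix (8 of them) and to 10.5 in homo (2 of them). Among those at 0 in homo were C1qa, C1qb, C1qc, Csf1r and Lyz2, and Adgre1 was at 0 in all 3. The macrophage sums rest on 262, 206 and 5 UMIs, and the gate held 3328252 UMIs in PBS against 478164 in homo. The 7 natural killer cell markers summed to 99.2, 35.7 and 6.27 CPM (330, 121 and 3 UMIs), with Ncr1 and Eomes at 0 in every library. Other lists ran differently: B cell markers, mostly Ighm, summed to 254, 286 and 418 CPM and endothelial ones to 39.7, 38.6 and 58.6. Dendritic markers summed to 365, 458 and 314 CPM, and the 6 regulatory T cell markers to 8096, 7751 and 6333. The part of these lists in the result was not tested. In Foxp3 cells without any macrophage-marker UMI (787, 748 and 119 cells) Mt1 was 331, 224 and 129 CPM, and the ratio of homo over PBS was as large, at -1.36. In the CD8 gate macrophage markers summed to 32.0, 14.35 and 20.15 CPM, and in CD8 cells without such UMIs Mt1 stood at 184, 151 and 318 CPM.

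CD4 cells without Foxp3 had the fewest UMIs. Mt1 was 122 CPM in PBS (101 to 147, 114 UMIs), 59.8 in mix (46.1 to 76.4, 64 UMIs) and 39.9 in homo (19.9 to 71.4, 11 UMIs). PBS lay above the others, which overlapped. Homo over PBS was -1.61 (-2.66 to -0.72) and mix over PBS -1.03 (-1.49 to -0.57). After thinning, 8.16% of PBS cells (5.06 to 12.3), 6.84% of mix (4.11 to 10.6) and 6.45% of homo (1.79 to 15.7) carried Mt1. These intervals overlapped, so the share of cells did not set the libraries apart. Of the tested genes 19.4% were 1.5-fold lower in homo than in PBS and 8.68% in mix. Macrophage markers in this gate summed to 59.9 CPM in PBS (56 UMIs), 18.7 in mix (20 UMIs) and 10.9 in homo (3 UMIs). In that order 8, 3 and 1 of the 10 reached 1 CPM, and C1qa, Csf1r and Lyz2 were among those at 0 in homo. Dendritic cell markers summed to 823, 438 and 243 CPM and those of natural killer cells to 269, 62.6 and 18.1 (251, 67 and 5 UMIs). Markers of regulatory T cells summed to 2862, 3005 and 2241 CPM, with Foxp3 at 0 by the gate. Gzmc had 188, 13 and 1 UMIs in PBS, mix and homo, and the highest single PBS cell held 29 of the 114 Mt1 UMIs. The part of these marker lists, of Gzmc and of that cell in the result was not tested. Mt2 had 9, 5 and 2 UMIs and Slc30a1 5, 7 and 1, too few to order the libraries.

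**Figure D3:**
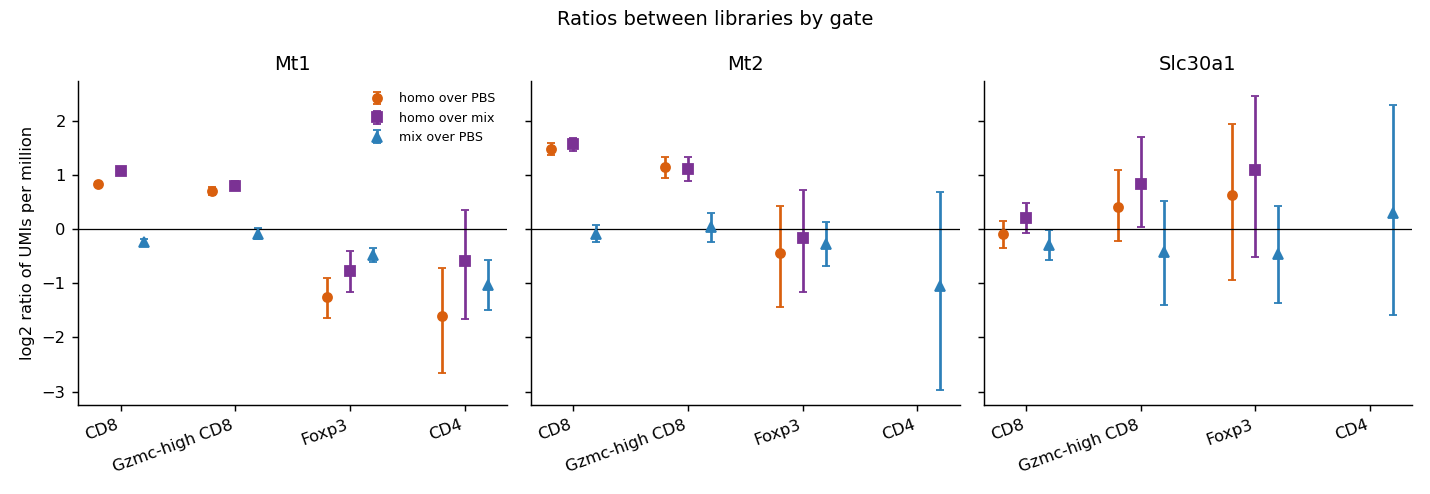
Log2 ratios between libraries (homo over PBS, homo over mix, mix over PBS) for the 3 genes in 4 gates, with exact 95% intervals for counting error. Ratios that rest on 3 UMIs or fewer are not drawn. Mt1 in homo over PBS is 0.83 in CD8 cells and -1.26 in Foxp3 cells, and Slc30a1 lies near 0 in CD8 cells.

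The balance between both metallothioneins differed as well. Mt2 made up 9.92% of the Mt1 and Mt2 UMIs in CD8 cells of PBS (9.28 to 10.6). The share was 10.9% for mix (10.2 to 11.7) and 14.7% for homo (14.2 to 15.2). Homo lay above the others, whose intervals overlapped. By state it was 8.92%, 10.7% and 13.3% in cells without Gzmc, 9.09%, 10.4% and 14.8% in terminal-like cells and 11.7%, 12.5% and 15.1% in Gzmc-high cells. In Foxp3 cells homo had 15.6% (8.32 to 25.6) on 77 UMIs, against 9.46% and 10.7%. The transcripts of Mt1 and Mt2 share no run longer than 20 bases in the GENCODE vM21 annotation, and those of Mt1 and Mt3 none longer than 27.

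**Figure D4:**
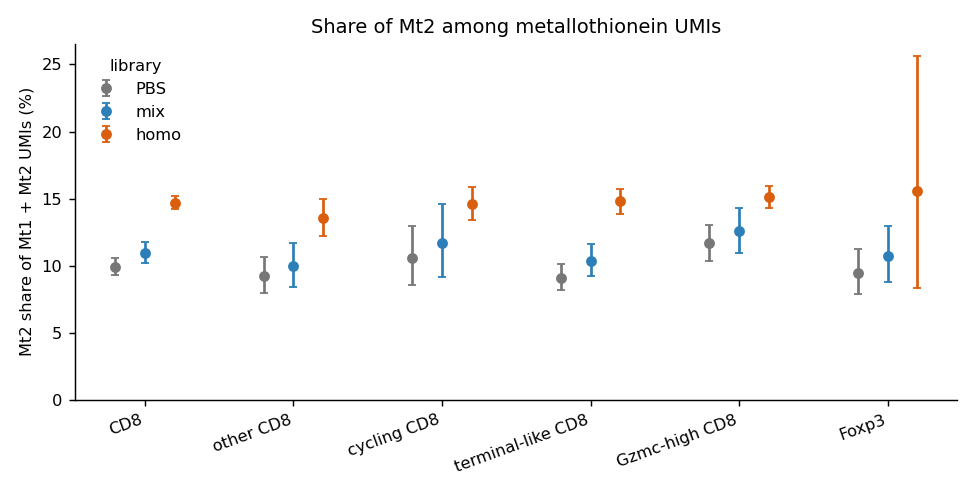
Share of Mt2 among Mt1 and Mt2 UMIs (percent) in 6 gates, with 1 point per library and exact 95% binomial bars. In the CD8 gate homo is at 14.7%, PBS at 9.92% and mix at 10.9%.

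Metallothionein RNA was spread unevenly over cells. In the CD8 gate 73.3% of PBS cells, 76.3% of mix cells and 56.2% of homo cells had no Mt1 UMI, and the 10% of cells with the most held 77.6%, 82.2% and 65.2% of all Mt1 UMIs. The highest single cell had 77, 225 and 97. Mt2 was absent from 92.9%, 93.4% and 80.5% of cells and Slc30a1 from 96.5%, 97.0% and 95.7%. Because the RNA sits in few cells, the counting intervals above are narrower than a spread over cells would be.

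Mt2 was seen more often in cells with Mt1 than in cells without it, but not only there. At 2000 UMIs per cell, Mt2 was seen in 10.3% of PBS CD8 cells with Mt1 (109 cells) and 1.21% of those without (69 cells). The shares were 11.1% and 0.843% in mix and 19.97% and 2.83% in homo. Over single CD8 cells the correlation of Mt1 with Mt2 was 0.29 in PBS (n = 6783), 0.29 in mix (n = 5288) and 0.37 in homo (n = 6114), as a description over cells of 1 library each. Slc30a1 was seen in 1.17% of PBS CD8 cells with neither metallothionein and 2.04% of those with 3 or more of their UMIs. In mix the shares were 0.981% and 0.671%, and in homo 1.09% and 2.43%. The share was thus higher with 3 or more metallothionein UMIs in PBS and homo and lower in mix. The intervals of each pair overlapped, which does not settle whether the shares differ, and an association in single cells was not tested. Mki67, a gene of dividing cells, was seen in like shares at 0 and at 3 or more metallothionein UMIs, 5.59% and 6.94% in PBS, 6.02% and 6.04% in mix and 9.73% and 9.07% in homo.

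Other genes were ranked by how closely they followed each member over the 24 pairs of library and gate, by Pearson r of log2(CPM + 10), among 4461 genes. For Mt1 the closest were Ndufb9 (0.945), a subunit of respiratory complex I, Tbcb (0.942), a tubulin cofactor, Mt2 (0.936), Mrpl54 (0.935), a mitochondrial ribosomal protein, and D16Ertd472e (0.926). For Mt2 they were Mt1 (0.936), Ppib (0.906), a peptidyl-prolyl isomerase of the endoplasmic reticulum, Mrpl54 (0.899), Actb (0.889), cytoplasmic actin, and Etfb (0.886), an electron transfer flavoprotein subunit. Slc30a1 had its closest in Cerk (0.780), ceramide kinase, Zmynd8 (0.752), Midn (0.748), Golgb1 (0.747) and Pnisr (0.746). Its r was -0.435 with Mt1 and -0.329 with Mt2. Gzmc had an r of 0.720 with Mt1, at rank 343, and of 0.762 with Mt2, at rank 79. With library means removed the ranks moved: for Mt1, Mt2 was at rank 2, D16Ertd472e at 3, Ndufb9 at 4, Tbcb at 6 and Mrpl54 at 7. Mt1 kept rank 1 for Mt2, and for Slc30a1 rank 1 passed to Midn (0.810), with Cerk at 4. The 24 points share 3 libraries, so these values describe the order of levels and carry no p.

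Among the other metallothioneins Mt3, known best from brain, was at 13.1 CPM in PBS CD8 cells, 8.16 in mix and 21.4 in homo, with homo over PBS at 0.71 (0.56 to 0.87) and mix over PBS at -0.68 (-0.89 to -0.47). Mt4, known from squamous epithelium, had no UMI in any gate. Mt3 was past 1.5-fold higher in homo than in PBS, as 3.2% of all tested genes were, and the median over all tested genes was -0.04. Mt1 and Mt2 entered by the choice of members, so no count or median over the family is drawn from them.

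Zinc carriers did not share this pattern in CD8 cells. Of the 10 Slc30a exporters, 4 were at 10 CPM or more, and none was past 1.5-fold in homo over PBS, where the median was 0.02. The most displaced were Slc30a5 (-0.38) and Slc30a7 (0.24), both exporters into the secretory pathway. Of the 14 Slc39a importers, 8 were tested, 1 was lower and none higher, against 4.6% lower and 3.2% higher over all tested genes. That one was Slc39a10, an importer of the plasma membrane, at 17.4 CPM in PBS and 9.47 in homo (-0.88), and it was also lower in homo than in mix (-0.87). Mtf1 itself stood at 20.2, 19.8 and 16.1 CPM in PBS, mix and homo, with homo over PBS at -0.32.

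Of 10 tested genes linked to zinc sensing and MTF1, only Mt1 and Mt2, themselves chosen for such a difference, were past 1.5-fold higher in homo than in PBS. Only Slc39a10 was lower, and the median was -0.16. The shares over all tested genes were 3.2% higher and 4.6% lower. Copper and iron genes had 0 higher and 2 lower of 15, Tfrc, the transferrin receptor (-1.28), and Slc31a1, the copper importer (-0.64). Glutathione and NRF2 genes had 1 higher of 13, Gclm, the modifier subunit of glutathione synthesis, at 69.5 CPM in PBS and 137 in homo (0.97). Its partner Gclc was at -0.35 and Nfe2l2, which encodes NRF2, at -0.31.

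Genes induced by glucocorticoids had 0 higher and 2 lower of 10, Dusp1 (-1.77) and Zfp36 (-1.06). The other 8 ran from Sgk1 (-0.43) to Ddit4 (0.31). Hypoxia genes had 0 higher and 4 lower of 12, Ankrd37 (-1.01), Bnip3 (-0.76), Ldha (-0.75) and Slc2a1 (-0.68). Over all tested genes 3.2% were higher in homo than in PBS and 4.6% lower. In mix over PBS the 1 gene of these 8 lists past 1.5-fold was Mt3, lower, where 0.552% of all tested genes were higher and 0.629% lower. In homo over mix Mt1, Mt2, Mt3 (1.39) and Gclm (1.36) were higher, and also Selenoh (0.65) and Il7r (0.60). Slc39a10, Tfrc (-1.24), Dusp1 (-1.55), Zfp36 (-0.79) and 5 of the 12 hypoxia genes were lower, led by Ankrd37 (-1.29). Of all tested genes 3.19% were higher in homo than in mix and 4.26% lower.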

How the data were processed

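The deposited matrices hold raw UMI counts per gene and barcode for 3 libraries (PBS, mix, homo), and per the file headers the authors wrote them with Cell Ranger 7.1.0. Another version of that program, 2.1.1, is listed with Seurat 4.1.0 and the build mm39 in the submitters' processing notes. All columns are counts and nothing in them was normalized. The members and lists were chosen with earlier results of these data known.

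Cells needed at least 500 genes, at least 1000 UMIs and a mitochondrial share under 10%. Scrublet (scanpy 1.11.5) marked 1, 0 and 0 doublets by its own threshold, which was therefore not used, and the highest scores were removed at 0.8% per 1000 barcodes (803, 527 and 485 cells). That left 9214, 7588 and 7303 cells. Gates were set on the UMIs of single cells, UMIs were summed per gate and library, and sums were divided by the gate's total UMIs to give CPM. Exact Poisson intervals (levels), conditional binomial intervals (ratios) and Clopper-Pearson intervals (shares) cover counting error only, at 95%. The interval code was tested on simulated data. A gene counts as higher or lower past 1.5-fold, with 10 CPM in either library. With 1 library per group there is no test. Named genes are the members, at most 4 genes of each list with the largest absolute log2 ratio, with Gclc, Nfe2l2, Mtf1 and Mt3 given as parts of the pathway, and the 5 genes closest to each member in r. Alternatives changed 1 choice at a time. Promoter windows are from RefSeq (GRCm38.p6). Python 3.11.15, numpy 2.4.6, scipy 1.17.1, pandas 2.3.3 and matplotlib 3.10.9 were used.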

Additional observations from a re-analysis of the deposited data

Results flagged for a closer look

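The Mt1 level in CPM differed between libraries in opposite directions by gate. Homo over PBS had a log2 ratio of 0.83 in CD8 cells, -1.26 in Foxp3 cells and -1.61 in CD4 cells without Foxp3, and none of the 3 intervals includes 0. The shares of thinned cells with Mt1 had overlapping intervals in PBS and homo, both in Foxp3 and in CD4 cells. Homo over mix was 1.08 in CD8 cells and -0.78 in Foxp3 cells, and -0.58 in CD4 cells, where the interval (-1.66 to 0.35) includes 0.

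Mt2 showed opposite signs with weaker counts. Homo over PBS was 1.48 in CD8 cells and -0.44 in Foxp3 cells, and homo over mix was 1.56 and -0.16. Both Foxp3 values rest on 12 UMIs in homo and have intervals that include 0.

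For Slc30a1, homo over PBS was -0.10 in CD8 cells and 0.63 in Foxp3 cells, and both intervals include 0. Mix over PBS was -0.30 in CD8 cells and 0.29 in CD4 cells, the latter from 7 and 5 UMIs. With 1 library per group, none of these differences between gates was tested.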

How the results depend on the processing

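For 24 results, the alternatives gave 207 values in all. Of these values, 180 stayed within the counting interval, 27 moved beyond it and none of the called values changed sign. Slc30a1 in homo over PBS ranged from -0.21 to 0.05 in CD8 cells. The cause of each move was not tested, apart from the cells an alternative leaves out.

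For Mt1 in CD8 cells, homo over PBS was 0.88 with median-ratio scaling, 0.70 without Gzmc-high cells and 0.65 with states weighted as in PBS. Homo over mix was 1.13 after thinning, 0.95 without Gzmc-high cells, 0.86 with that weighting and 1.13 without the highest cell. Mix over PBS was -0.31 after thinning. For Mt2 the weighting gave 1.28 over PBS and 1.32 over mix, and thinning gave 1.82 for homo over mix and -0.27 for mix over PBS.

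Gzmc-high over other CD8 cells, Mt1 in PBS gave 1.35 by the mean over cells and 1.37 thinned. In homo it gave 1.38 and 1.35, and 1.10 without doublet removal, and in mix 1.10 without the highest cell. Mt2 gave 2.21 thinned and 1.37 without the highest cell in mix, and 1.49 by the mean over cells and 1.498 thinned in homo. Slc30a1 in PBS gave -1.06 thinned.

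In Foxp3 cells the mean over cells gave -0.63 for Mt1 and -0.72 for Mt2 in mix over PBS. Thinning gave Mt2 -1.82 in homo over PBS and -1.33 over mix, with 2 homo cells holding it. With no CPM floor, list counts grew, as for hypoxia genes, 8 of 16 lower in homo over PBS in place of 4 of 12. No paired analysis was possible because each group has 1 library and no replicate numbers. Weighting by state, the mitochondrial band, leaving out the highest cell, shared barcodes or macrophage-marker cells, and all Foxp3 alternatives were chosen after seeing the data. Foxp3 and CD4 cells of homo, 124 and 70, limit every value from them.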
